A study of Mus musculus with 6 samples.

Results

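Integrin chains, laminin chains and nidogens were read out in CD8 T cells sorted from mouse tumours. The 36 genes were taken by symbol from a count table of 40879 genes: 24 integrin chains (all that were listed apart from Itgae and Itga1), 10 laminin chains and 2 nidogens. The cells came from MC38-hPD-L1 tumours, grown for 12 days in C57BL/6N mice. MC38 cells derive from a murine carcinoma of the colon. The series title names photocatalytic proximity labelling. Biotin+ cells are described as neighbouring the tumour, and Biotin- cells as distal to it. Each group had 3 libraries of poly-A RNA, numbered as replicates 1 to 3, and both groups shared the same tumour model, strain and sort. The labels give neither the number of mice nor whether mice were pooled, so p-values measure the spread between these libraries, which may in part be technical.

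Integrins are receptors made of an alpha and a beta chain that bind matrix proteins or surface molecules of other cells. On T cells, LFA-1 (Itgal with Itgb2) binds ICAM proteins and holds the contact with a target cell, while Itga4 pairs with Itgb1 or Itgb7 and binds VCAM-1 or MAdCAM-1. Epithelial cells and vessel cells rest on laminin networks of alpha, beta and gamma chains, which nidogens link to type IV collagen. Epithelial cells hold to these networks with integrins such as Itga6 with Itgb4.

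Total counts ran from 16440614 to 19640693 in Biotin+ and from 16423106 to 19035864 in Biotin- libraries. Genes with a count numbered 15780 to 16213 in Biotin+ and 18142 to 18477 in Biotin-. The 15 CD8 T cell markers together held 8640 to 11400 CPM (counts scaled to library size with TMM factors) in Biotin+ and 4550 to 6640 CPM in Biotin-. The 10 fibroblast markers held 119 to 219 CPM in Biotin+ and 747 to 1120 CPM in Biotin-, with Fap at 0 in the 3 Biotin+ libraries. The 9 epithelial and tumour markers held 23.4 to 136 CPM in Biotin+ and 14.2 to 56.8 CPM in Biotin-, most of it Cdh1 (mean ± SD of 56.3 ± 62.8 CPM in Biotin+, against 27.2 ± 22.0 CPM in Biotin-, 3 libraries each). Krt7 and Krt20 were at 0 in all 6 libraries. Krt8, Krt19 and Cldn4 were at 0 in Biotin+ with at most 7 counts in a Biotin- library, while Krt18 had 29, 7 and 3 counts in Biotin+ and 2, 2 and 7 in Biotin-, and Cldn7 had 1, 7 and 3 counts in Biotin+ and 0 in each Biotin- library. In a bulk sample, fewer cells of a type and less RNA per cell cannot be told apart.

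Among the 36 genes, the matrix-facing chains Itgb4, Itgb5, Itga5 and Itga7 and the laminin chains Lamb1 and Lamb2 fell in Biotin+. None rose in the main test, which compared the groups without pairing. Of the 36, 27 had enough counts to be tested, 6 (22.2%) were lower in Biotin+, 0 were higher and 21 did not pass, with the quasi-likelihood test of edgeR and a threshold of 0.05 on the adjusted p. Over all 13360 genes tested, 6.72% were lower and 1.53% were higher (898 and 205 genes). Before adjustment, 2 members had a p under 0.05 and were higher, and 8 were lower (the share over all genes was not counted). DESeq2 gave 1 higher and 7 lower, beside 471 higher and 1389 lower among all 13360 genes. Limma-voom gave 0 higher and 6 lower, beside 331 and 933 among all genes. The labels state no pairing, but deviations from the group means correlated at 0.272 to 0.430 for libraries with equal replicate numbers. With the number as a block, 2 members were higher (Itgal and Itgb2) and 8 lower, against 5.60% higher and 12.0% lower of all genes. The block added Itgam and Nid1 to the 6 lower members. The median log2 fold change of the 27 was -0.425, beside 0.0612 for all genes tested. For the members it was -0.205 without Biotin- replicate 1 and -1.17 under the CD8 T cell marker scaling.

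Single libraries moved the count. Leaving out Biotin+ replicate 1 gave 3 members lower, as did leaving out Biotin+ replicate 2, and leaving out Biotin- replicate 3 gave 2. Itgb4 and Itgb5 passed whichever of the 6 libraries was dropped. When libraries were scaled to the CD8 T cell markers, the log2 fold changes of all genes moved by a median of -0.754, with 24 genes higher and 3558 lower, and 13 members were lower.

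**Figure D1:**
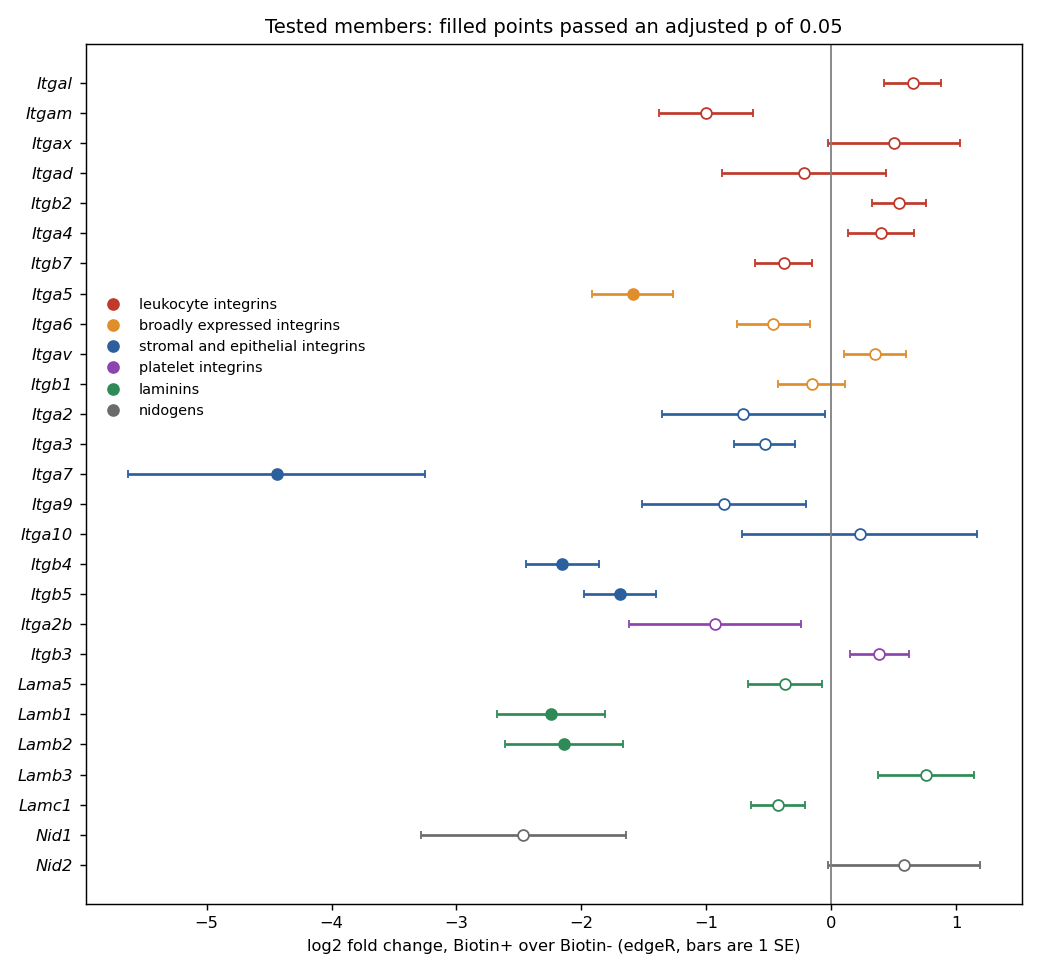
Log2 fold change of the 27 tested members, Biotin+ over Biotin-, with bars of 1 standard error, coloured by class, and filled where the adjusted p was under 0.05. The 6 filled points all lie left of 0, with Itga7, which had 3 counts in Biotin+, farthest left, and the points of Itgal and Itgb2 lie right of 0 and are open (left of 0, at -0.07 and -0.20, under the CD8 T cell marker scaling).

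Among the leukocyte chains, Itgal, the alpha chain of LFA-1, had 953, 803 and 763 CPM in Biotin+ replicates 1, 2 and 3, against 565, 626 and 412 CPM in Biotin- replicates 1, 2 and 3. All 3 Biotin+ libraries lay above all 3 Biotin- libraries. The log2 fold change of 0.65 ± 0.23 (SE) missed the threshold (edgeR adjusted p = 0.112). It passed with the replicate block (edgeR adjusted p = 0.0138) and in DESeq2 (adjusted p = 0.0370). Under the CD8 T cell marker scaling it was -0.07 (edgeR adjusted p = 0.791).

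Itgb2, the beta chain shared by the LFA-1 family, had 549.9, 577 and 507 CPM in Biotin+ and 426, 405 and 290.2 CPM in Biotin- replicates 1, 2 and 3. These ranges did not overlap either. Its log2 fold change was 0.54 ± 0.21 (SE; edgeR adjusted p = 0.159, and 0.0330 with the replicate block), and -0.20 under the CD8 T cell marker scaling (edgeR adjusted p = 0.4). Itgal and Itgb2 were the only tested members with all Biotin+ libraries above all Biotin- libraries, 2 of 27 or 7.41%, and 13.4% of all tested genes had that pattern.

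The other partners of Itgb2 mark myeloid and NK cells as well as some activated T cells. Itgam, the alpha chain of Mac-1, had 40.8, 30.2 and 18.8 CPM in Biotin+ against 97.5, 41.2 and 41.2 CPM in Biotin-. Biotin- replicate 1 was the highest, and its 11 macrophage markers were also the highest of the 6 libraries (2828 CPM, against 360 to 1060 CPM in Biotin+ and 793 and 1012 CPM in the other Biotin- libraries). Their part in the difference was not tested. The log2 fold change of Itgam was -1.0 ± 0.38 (SE; edgeR adjusted p = 0.143, and 0.00605 with the replicate block). In GENCODE M21, 68.7% of the exonic bases of Itgam are shared with the gene model Gm49368, so its counts are uncertain.

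Itgax, the CD11c chain of dendritic cells and some effector T cells, had 118, 31.1 and 25.3 CPM in Biotin+ and 58.1, 33.0 and 32.2 CPM in Biotin-. Biotin+ replicate 1 stood far above the other libraries. The log2 fold change was 0.50 ± 0.53 (SE, edgeR adjusted p = 0.624), and -0.54 without that library. The 10 dendritic cell markers held 320 to 822 CPM in Biotin+, with the highest sum in replicate 1, and 315 to 803 CPM in Biotin-. Itgad, another partner of Itgb2, lay between 0.848 and 3.24 CPM in Biotin+ and between 1.32 and 2.58 CPM in Biotin- and did not pass.

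Itga4, the alpha chain of VLA-4, had 84.9, 95.5 and 123.4 CPM in Biotin+ and 70.0, 106 and 53.8 CPM in Biotin-. The groups overlapped. The log2 fold change was 0.40 ± 0.26 (SE, edgeR adjusted p = 0.407), and -0.29 under the CD8 T cell marker scaling. Itgb7, its gut-homing partner, had 286, 250.3 and 255 CPM in Biotin+ and 365, 246 and 418 CPM in Biotin-, also with overlap (log2 fold change -0.38 ± 0.23 SE, edgeR adjusted p = 0.367). Of the 7 leukocyte chains, edgeR called 0, DESeq2 1 (Itgal, higher) and limma-voom 0. Of all 13360 genes, edgeR, DESeq2 and limma-voom called 205, 471 and 331 higher and 898, 1389 and 933 lower. Without adjustment, 2 of the 7 chains had a p under 0.05 and were higher and 1 was lower (the share over all genes was not counted). The replicate block called 2 higher and 1 lower, where it called 5.60% of all genes higher and 12.0% lower.

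Chains that T cells share with adherent cells differed in their behaviour. Itgb1, the beta chain of most matrix-binding integrins, had 652, 371 and 346 CPM in Biotin+ and 541, 557 and 428 CPM in Biotin-. Biotin+ replicate 1 was the highest library and the other Biotin+ libraries were the lowest, and the log2 fold change was -0.16 ± 0.27 (SE, edgeR adjusted p = 0.785). Itgav, the vitronectin receptor chain, had 139, 83.6 and 135 CPM in Biotin+ and 97.0, 112 and 71.6 CPM in Biotin- (log2 fold change 0.35 ± 0.25 SE, edgeR adjusted p = 0.445, and -0.34 under the CD8 T cell marker scaling). Itga6, a laminin receptor chain, had 43.5, 20.9 and 50.3 CPM in Biotin+ and 51.4, 51.5 and 55.3 CPM in Biotin-. Its ranges did not overlap, yet it did not pass (log2 fold change -0.46 ± 0.29 SE, edgeR adjusted p = 0.388).

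Itga5, the alpha chain of the fibronectin receptor, fell. It had 40.0, 27.5 and 20.0 CPM in Biotin+ and 113, 54.1 and 95.9 CPM in Biotin- replicates 1, 2 and 3, so that the groups did not overlap and each pair had the lower value in Biotin+. The log2 fold change was -1.59 ± 0.32 (SE, edgeR adjusted p = 0.0166). The call was lost without Biotin+ replicate 2 (edgeR adjusted p = 0.0785), Biotin- replicate 1 (0.0530) or Biotin- replicate 3 (0.0687).

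**Figure D2:**
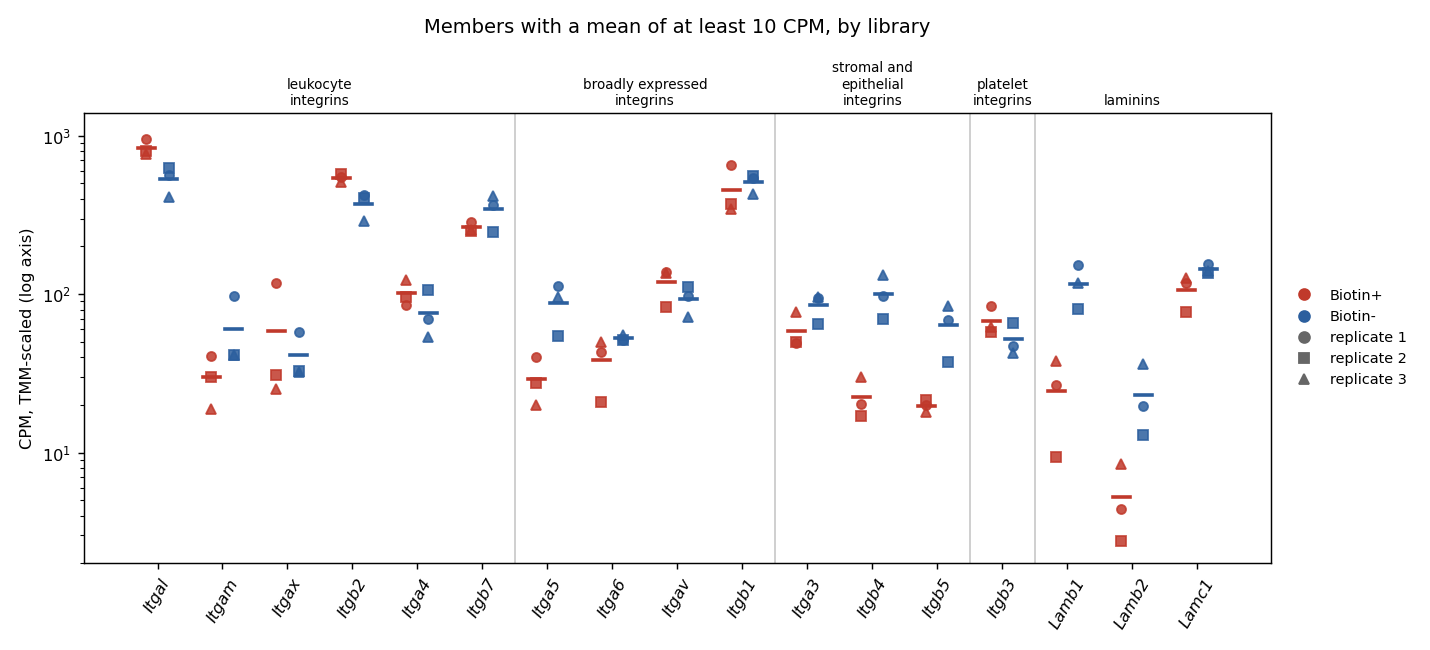
CPM (TMM-scaled, log axis) of the 17 members with a mean of at least 10 CPM, with Biotin+ libraries in red left of Biotin- libraries in blue, symbols for the replicate number and bars for the group mean. Itgal and Itgb2 sit higher in all Biotin+ libraries (their fold changes turn under the CD8 T cell marker scaling). Itga5, Itgb4, Itgb5, Lamb1 and Lamb2 sit lower in all of them, as do Itgam, Itga6 and Lamc1, which did not pass. Itga3, Itga4, Itgav, Itgax, Itgb1, Itgb3 and Itgb7 overlap.

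Of the 11 stromal and epithelial integrin chains, 7 could be tested, 3 fell (Itgb4, Itgb5 and Itga7) and 4 did not pass. Of all genes tested, 6.72% were lower. The number of these chains that fell was 2 whichever of the 6 libraries was left out. Itgb4, the laminin-binding beta chain of epithelial hemidesmosomes, had 20.3, 17 and 29.9 CPM in Biotin+ against 97.7, 69.6 and 132 CPM in Biotin-. The highest Biotin+ library held less than the lowest Biotin- library. The level was lower by a factor of 4.44 (log2 fold change -2.15 ± 0.29 SE, edgeR adjusted p = 0.00603). Of its exonic bases, 7.66% are shared with the antisense gene B230344G16Rik.

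Itgb5, which joins Itgav to bind vitronectin, had 19.9, 21.4 and 17.9 CPM in Biotin+ and 69.0, 37.2 and 84.8 CPM in Biotin-. The Biotin+ libraries lay close together and the Biotin- libraries were spread, with no overlap. The log2 fold change was -1.69 ± 0.29 (SE, edgeR adjusted p = 0.00879). Itga3, a laminin receptor chain that pairs with Itgb1, had 49.5, 50.2 and 77.0 CPM in Biotin+ and 94.8, 64.7 and 96.1 CPM in Biotin- and did not pass (log2 fold change -0.53 ± 0.24 SE, edgeR adjusted p = 0.230).

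Itga7, the laminin receptor chain of muscle, was counted 0, 3 and 0 times in Biotin+ replicates 1, 2 and 3, against 54, 10 and 21 times in Biotin-. It passed (edgeR adjusted p = 0.0459) and lost the call without each of the 6 libraries (adjusted p from 0.0658 to 0.220). With 3 counts in one group, the size is best given from the pooled counts per total: Biotin+ held 0.0396 times the Biotin- level, with an exact 95% interval of 0.00801 to 0.12 that covers counting error only. Itga2, a collagen receptor chain, Itga9, a tenascin receptor chain, and Itga10, a collagen receptor chain of cartilage, had means of 1.05 to 3.04 CPM over the 6 libraries and did not pass (edgeR adjusted p from 0.481 to 0.917). Itga11, Itga8, a chain of mesenchymal cells, and Itgb6 and Itgb8, partners of Itgav that activate TGF-beta, had too few counts for a test. Itga11, a collagen receptor chain of fibroblasts, was counted 4, 0 and 0 times in Biotin+ and 41, 5 and 0 times in Biotin-, so that a single Biotin- library held most of it.

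Itga2b and Itgb3 form the fibrinogen receptor of platelets, and Itgb3 also pairs with Itgav. Itgb3 had 84.2, 57.4 and 61.7 CPM in Biotin+ and 47.2, 66.1 and 42.4 CPM in Biotin-, with overlap (log2 fold change 0.39 ± 0.24 SE, edgeR adjusted p = 0.377, and -0.31 under the CD8 T cell marker scaling). Itga2b had only 0.593 to 1.27 CPM in Biotin+ and 0.713 to 2.54 CPM in Biotin- (edgeR adjusted p = 0.465). The 9 platelet markers held 5.87 to 11.1 CPM in Biotin+ and 8.92 to 27.2 CPM in Biotin-, with Gp6 at 0 in all libraries.

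As sums of TMM-scaled CPM, leukocyte chains were higher in Biotin+, mainly through Itgal and Itgb2, and stromal and epithelial chains were lower. Under the CD8 T cell marker scaling the median log2 fold change was -0.295 for the leukocyte chains (0.403 with TMM). For the stromal and epithelial chains it was -1.68 (-0.857 with TMM). The leukocyte median was also -0.437 without Biotin+ replicate 1 and -0.0652 in limma-voom, and 0.202 with the replicate block, and the stromal and epithelial median was -0.449 without Biotin- replicate 1. The 7 leukocyte chains summed to 1840 ± 177 CPM in Biotin+ and 1430 ± 169 CPM in Biotin-, and the 11 stromal and epithelial chains to 106 ± 21.9 CPM in Biotin+, against 258 ± 72.3 CPM in Biotin- (SD over 3 libraries). The ratio of the leukocyte to the stromal sum, which does not depend on how libraries are scaled, was 22.0, 19.0 and 12.9 in Biotin+ replicates 1, 2 and 3, against 5.70, 8.18 and 3.92 in Biotin-. The lowest Biotin+ ratio was above the highest Biotin- ratio. No test is given, since the classes were drawn up with earlier results of these data known.

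Markers of other cells did not all move with the stromal sum. The summed epithelial and tumour markers were 1.91 times as high in Biotin+ as in Biotin-, and the neutrophil markers 1.69 times, both with overlapping ranges. The NK cell markers were 1.68 times and the dendritic cell markers 1.04 times as high. Fibroblast, pericyte, endothelial, B cell, macrophage and platelet sums were lower in Biotin+. The macrophage sum was 1.91 times and the platelet sum 1.83 times as high in Biotin- as in Biotin+, each with overlapping ranges. All 11 macrophage markers had negative log2 fold changes, but 0 passed. Their median of -0.92 was -0.223 without Biotin- replicate 1. Fibroblast markers fell in 6 of 9 tested genes, where 6.72% of all genes were lower. Their summed level in Biotin- was 5.81 times that in Biotin+. For the stromal and epithelial integrins the factor was 2.44, and for the laminins and nidogens 1.95. The 8 pericyte markers held 24.9 to 35.5 CPM in Biotin+ and 60.8 to 105 CPM in Biotin-. The 10 endothelial markers held 12.1 to 20.9 CPM in Biotin+ and 19.7 to 31.2 CPM in Biotin-, most of it Pecam1 (mean ± SD of 11.6 ± 4.66 CPM in Biotin+, against 20.4 ± 4.36 CPM in Biotin-, 3 libraries each). Egfl7 had 2.86, 4.31 and 4.42 CPM in Biotin+ and 1.75, 2.25 and 1.95 CPM in Biotin-, and did not pass (log2 fold change 0.96 ± 0.43 SE, edgeR adjusted p = 0.217). Tek, Emcn and Plvap were at 0 in Biotin+, with at most 20 counts in a Biotin- library. The 5 NK cell markers held 118 to 214 CPM in Biotin+ and 52.4 to 115 CPM in Biotin-, the 6 B cell markers 2.38 to 4.91 CPM in Biotin+ and 7.18 to 13.2 CPM in Biotin-, and the 8 neutrophil markers 2.97 to 17.6 CPM in Biotin+ and 3.35 to 8.71 CPM in Biotin-. The part of these cells in the lower integrin and laminin levels was not tested.

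**Figure D3:**
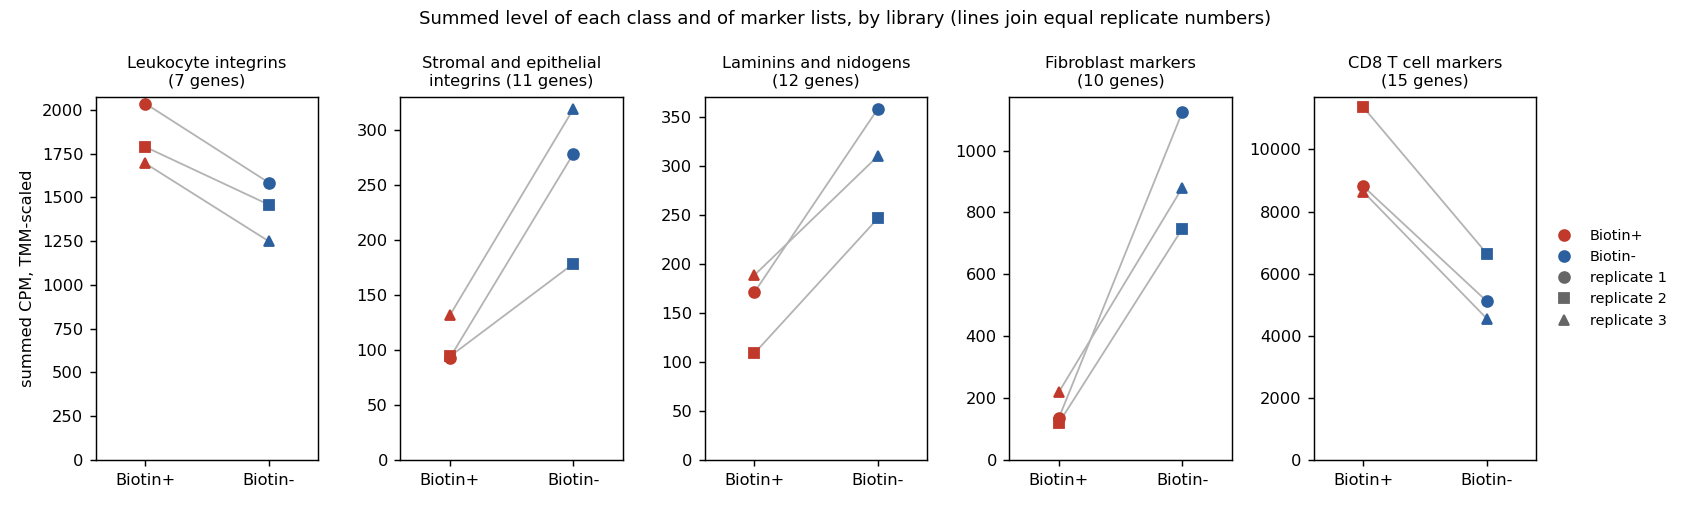
Summed CPM of the leukocyte integrins, the stromal and epithelial integrins, the laminins and nidogens, the fibroblast markers and the CD8 T cell markers in each library, Biotin+ left of Biotin-, with lines joining equal replicate numbers. In all 3 pairs the leukocyte and CD8 T cell sums are higher in Biotin+ with TMM scaling (the median log2 fold change of the leukocyte chains turns negative under the CD8 T cell marker scaling, in limma-voom and without Biotin+ replicate 1), and the stromal, laminin and fibroblast sums are lower. The higher leukocyte sum comes mainly from Itgal and Itgb2.

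Levels of different chains were compared per length, as CPM per kb of the longest coding transcript in GENCODE M21. In Biotin+ the order of the members was Itgb2 (183 ± 11.8), Itgal (161 ± 19.1), Itgb1 (119.6 ± 44.6) and Itgb7 (98.3 ± 7.31 CPM per kb; SD, n = 3), followed by Itgav at 16.9. The range of each of the 4 overlapped that of its neighbour, though Itgb2 was above Itgal in each library. In Biotin- the same 4 chains led, with Itgb1 at 133 ± 18.3, Itgb7 at 128 ± 32.8, Itgb2 at 126 ± 24.5 and Itgal at 102 ± 21.2 CPM per kb. Itgal lay below Itgb1 and below Itgb2 in each of the 3 Biotin- libraries, whereas the order of Itgb1, Itgb7 and Itgb2 differed between libraries. Lamb1 averaged 4.25 ± 2.48 CPM per kb in Biotin+ and 20.2 ± 6.26 CPM per kb in Biotin-. The Biotin- means of Itga5, Itgb5, Lamc1, Itga3 and Itgb4 lay within its spread.

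Of the summed per-length level of the 8 beta chains, Itgb2 made up 38.0%, 48.1% and 45.2% in Biotin+ replicates 1, 2 and 3, against 30.7%, 33.4% and 23.3% in Biotin-. Itgb4 and Itgb5 together stayed a small part, with Itgb4 at 0.876 ± 0.347% in Biotin+ and 3.72 ± 1.19% in Biotin-, and Itgb5 at 1.44 ± 0.184% in Biotin+ and 4.48 ± 1.68% in Biotin- (SD, n = 3). Of the 16 alpha chains, Itgal held 67.9 ± 4.00% of the summed level in Biotin+ and 51.4 ± 6.78% in Biotin-. Itga5 held 2.76 ± 0.629% in Biotin+ and 10.2 ± 3.64% in Biotin- (SD, n = 3).

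**Figure D4:**
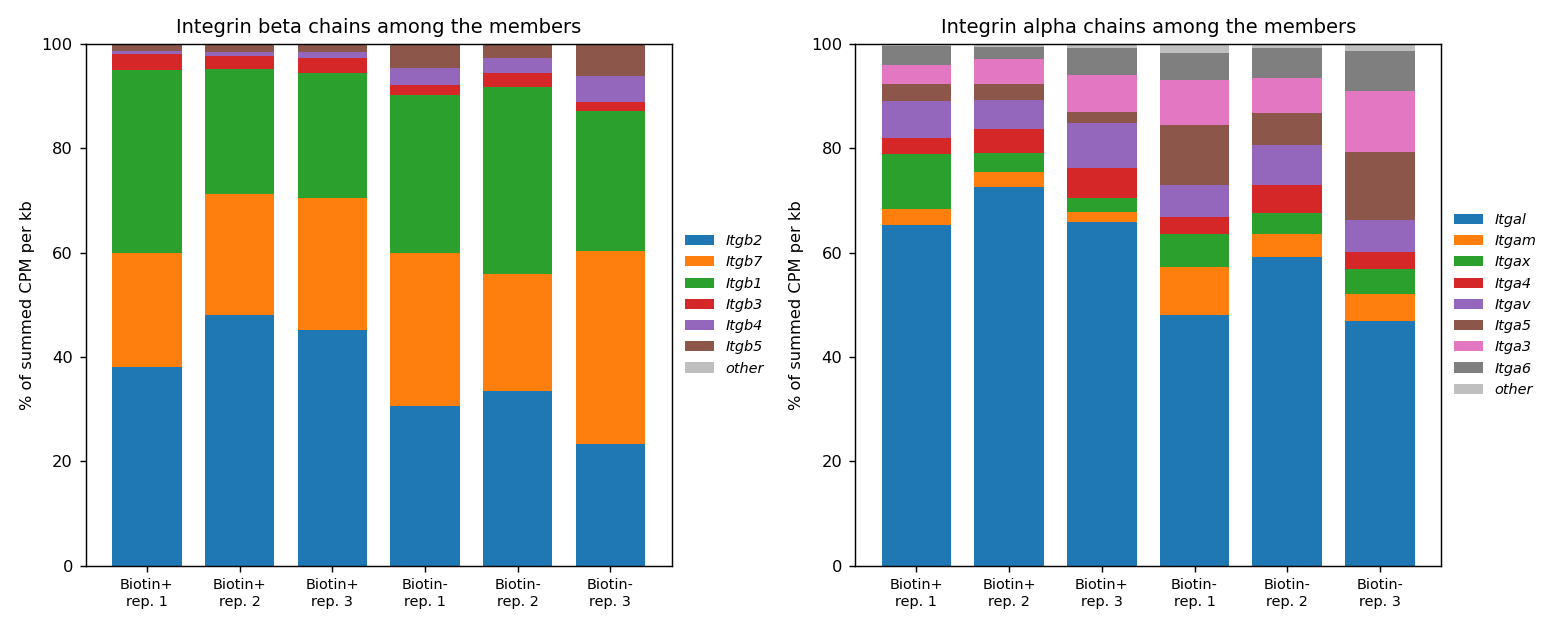
Share of each chain in the summed CPM per kb of the 8 beta chains (left) and the 16 alpha chains (right) in each library, Biotin+ libraries left of Biotin- libraries. Itgb2 takes 38.0% to 48.1% of the beta chain level in Biotin+ and 23.3% to 33.4% in Biotin-, and Itgal takes 65.3% to 72.5% of the alpha chain level in Biotin+ and 46.9% to 59.2% in Biotin-.

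Because an integrin needs both chains, partners were set against each other within each library, on the CPM per kb scale, as 14 ratios that no scaling changes. The Itgal to Itgb2 ratio was 0.986, 0.792 and 0.856 in Biotin+ and 0.755, 0.880 and 0.806 in Biotin-, with overlap between groups (exact permutation p = 0.5, n = 3). The Itgb4 to Itga6 ratio was 0.325, 0.564 and 0.413 in Biotin+ and 1.32, 0.938 and 1.65 in Biotin-. Itgb4 lay below its partner in every Biotin+ library and in 1 of the 3 Biotin- libraries. The Itgb5 to Itgav ratio was 0.308, 0.550 and 0.285 in Biotin+ and 1.53, 0.717 and 2.55 in Biotin-, whereas the Itgb3 to Itgav ratio overlapped between groups, at 0.557 to 0.838 in Biotin+ and 0.594 to 0.723 in Biotin-.

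For the fibronectin receptor, the Itga5 to Itgb1 ratio was 0.0534, 0.0646 and 0.0502 in Biotin+ and 0.183, 0.0846 and 0.195 in Biotin-. The ratio of Itgb7 to Itgb2, which do not pair but mark different leukocyte integrins, was 0.576, 0.480 and 0.556 in Biotin+ and 0.95, 0.673 and 1.59 in Biotin-. The Itgam to Itgb2 ratio, in which the counts of Itgam are uncertain, was 0.047, 0.0332 and 0.0236 in Biotin+ and 0.145, 0.0646 and 0.0901 in Biotin-. Each of these sets of ratios was lower in all Biotin+ libraries. Ratios without overlap gave an exact two-sided permutation p of 0.1, the smallest that 3 against 3 libraries allow, and an adjusted p of 0.2 over the 14 ratios.

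**Figure D5:**
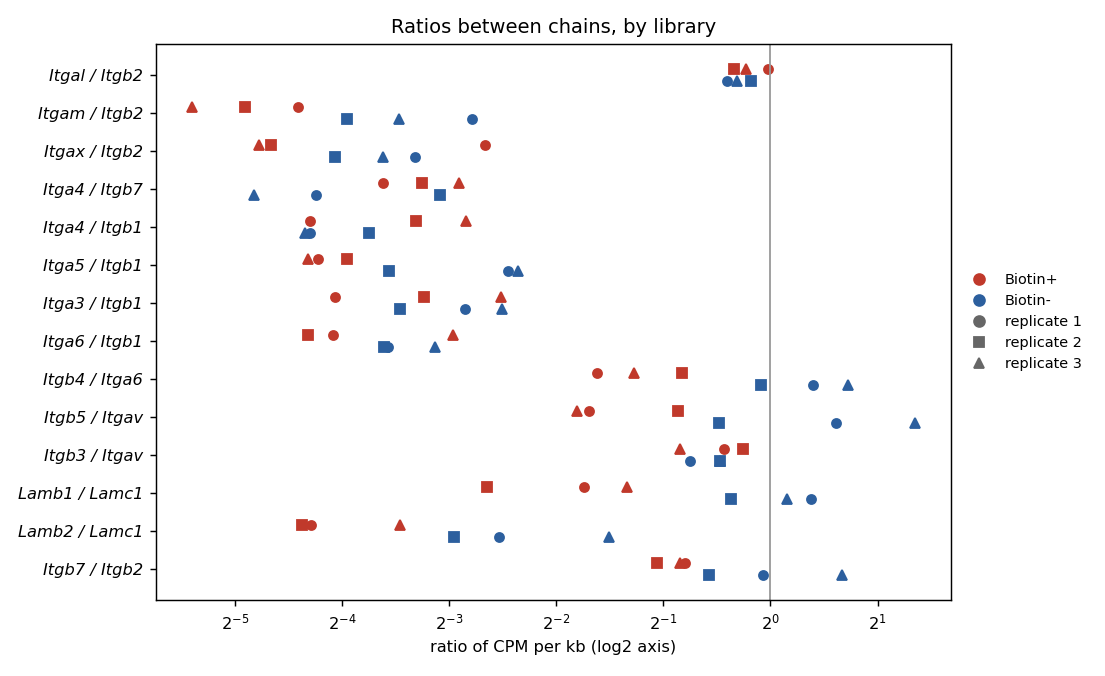
Ratio of CPM per kb between chains in each library on a log2 axis, Biotin+ in red above Biotin- in blue, with symbols for the replicate number. Itgb4 to Itga6, Itgb5 to Itgav, Itga5 to Itgb1, Lamb1 to Lamc1 and Lamb2 to Lamc1 lie lower in all Biotin+ libraries. The leukocyte ratios Itgam to Itgb2 and Itgb7 to Itgb2 do so too. The other ratios, among them Itgal to Itgb2 and Itgb3 to Itgav, overlap.

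Among the laminins, the beta chains Lamb1 and Lamb2 fell and the gamma chain Lamc1, which joins them in most laminins, did not pass. Lamb1 had 26.6, 9.38 and 37.9 CPM in Biotin+ and 153, 80.1 and 118 CPM in Biotin-, with no overlap (log2 fold change -2.25 ± 0.43 SE, edgeR adjusted p = 0.0139). Its call was lost without Biotin+ replicate 1 (edgeR adjusted p = 0.0519) or Biotin- replicate 3 (0.0574). Lamb2, the beta chain of muscle, nerve and kidney laminins, had 4.42, 2.75 and 8.48 CPM in Biotin+ and 19.7, 13 and 36.3 CPM in Biotin- (log2 fold change -2.14 ± 0.47 SE, edgeR adjusted p = 0.0227). The groups did not overlap. Replicate 3 was the highest library of Lamb2 in each group and replicate 2 the lowest. The call was lost without Biotin+ replicate 1 (edgeR adjusted p = 0.0689), Biotin+ replicate 2 (0.0843) or Biotin- replicate 3 (0.110).

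Lamc1 had 117, 77.3 and 126 CPM in Biotin+ and 154, 136 and 140.1 CPM in Biotin-, a smaller gap without overlap (log2 fold change -0.42 ± 0.22 SE, edgeR adjusted p = 0.287). On the per-length scale the Lamb1 to Lamc1 ratio was therefore 0.299, 0.160 and 0.395 in Biotin+ and 1.30, 0.776 and 1.11 in Biotin-. Lamb3, a chain of the epithelial anchoring laminin, had 7.55, 9.13 and 4.91 CPM in Biotin+ and 5.79, 3.84 and 3.08 CPM in Biotin-. It was higher in Biotin+ in 3 of 3 pairs, with overlap between groups, and did not pass (log2 fold change 0.76 ± 0.39 SE, edgeR adjusted p = 0.277).

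Laminin alpha chains were scarce. Lama5, the broadest of them, had 7.23, 7.06 and 7.27 CPM in Biotin+ and 11.4, 7.13 and 9.35 CPM in Biotin- (edgeR adjusted p = 0.502). Lama1, Lama2, Lama3, Lama4 and the gamma chain Lamc3 had too few counts for a test. No library held more than 36 counts of any of these 5 genes, and Lama1 and Lama2 had 0 counts in Biotin+, where 0 allows up to 3 counts in a library.

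Neither nidogen passed the main test. Nid1 had 1.51, 0.250 and 0.606 CPM in Biotin+ and 8.13, 4.17 and 0.973 CPM in Biotin-, lower in Biotin+ in 3 of 3 pairs but with overlap. Its log2 fold change was -2.46 ± 0.82 (SE, edgeR adjusted p = 0.0982), and it passed with the replicate block (edgeR adjusted p = 0.0126). Nid2 had 6.04, 2.38 and 2.54 CPM in Biotin+ and 4.53, 1.21 and 1.57 CPM in Biotin-, higher in Biotin+ in 3 of 3 pairs, with overlap (log2 fold change 0.58 ± 0.61 SE, edgeR adjusted p = 0.622). Over all members tested, 9 of 27 (33.3%) had every Biotin+ library below every Biotin- library, where 15.9% of all genes did.

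Promoter sequences were taken from RefSeq (GRCm38.p6), which held entries for 23 of the 36 members. The windows shown are the 250 bases before the start of 4 members that fell, Itgb5 (chr16:33829415-33829664 on the plus strand), Itga5 (chr15:103366792-103367041 on the minus strand), Lamb1 (chr12:31265043-31265292 on the plus strand) and Lamb2 (chr9:108479612-108479861 on the plus strand), and of the leukocyte pair Itga4 (chr2:79255176-79255425 on the plus strand) and Itgb7 (chr15:102231936-102232185 on the minus strand), so that members that fell can be read beside leukocyte chains that did not pass. Capitals mark the Sp1-type GC box GGGCGG on either strand.
Itgb5: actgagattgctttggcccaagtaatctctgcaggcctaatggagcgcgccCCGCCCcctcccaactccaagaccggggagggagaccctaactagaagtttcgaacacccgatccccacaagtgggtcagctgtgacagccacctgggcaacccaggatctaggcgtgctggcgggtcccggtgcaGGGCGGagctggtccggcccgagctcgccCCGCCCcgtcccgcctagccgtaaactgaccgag
Itga5: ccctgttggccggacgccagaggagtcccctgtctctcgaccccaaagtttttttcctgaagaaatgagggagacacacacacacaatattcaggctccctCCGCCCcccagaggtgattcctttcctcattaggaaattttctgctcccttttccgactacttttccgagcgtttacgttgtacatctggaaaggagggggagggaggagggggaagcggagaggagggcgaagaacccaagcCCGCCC
Lamb1: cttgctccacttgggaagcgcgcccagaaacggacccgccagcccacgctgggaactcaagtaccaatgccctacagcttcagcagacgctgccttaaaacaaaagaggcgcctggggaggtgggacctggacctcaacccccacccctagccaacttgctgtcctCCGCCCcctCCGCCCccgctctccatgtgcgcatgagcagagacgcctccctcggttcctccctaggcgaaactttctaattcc
Lamb2: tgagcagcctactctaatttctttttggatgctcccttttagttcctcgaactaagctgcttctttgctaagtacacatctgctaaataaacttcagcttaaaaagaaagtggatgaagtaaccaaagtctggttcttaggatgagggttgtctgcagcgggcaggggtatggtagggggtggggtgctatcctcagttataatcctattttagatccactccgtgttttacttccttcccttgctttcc
Itga4: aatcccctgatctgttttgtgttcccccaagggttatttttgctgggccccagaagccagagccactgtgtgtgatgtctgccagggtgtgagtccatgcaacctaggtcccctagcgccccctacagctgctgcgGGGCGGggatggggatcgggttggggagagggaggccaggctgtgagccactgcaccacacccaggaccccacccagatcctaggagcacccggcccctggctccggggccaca
Itgb7: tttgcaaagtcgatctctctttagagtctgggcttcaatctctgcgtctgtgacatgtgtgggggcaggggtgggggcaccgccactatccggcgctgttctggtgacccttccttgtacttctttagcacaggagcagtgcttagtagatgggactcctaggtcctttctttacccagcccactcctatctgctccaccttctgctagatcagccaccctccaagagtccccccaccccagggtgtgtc

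The GC box occurred 3 times in the Itgb5 window, 2 times each in the Itga5 and Lamb1 windows, 1 time in the Itga4 window and 0 times in the Lamb2 and Itgb7 windows. Of the 26 windows of the members, 10 held it, and 32.7% of all 32851 mouse promoter windows of this length did. The Itgb5, Lamb1 and Itga5 windows had 18, 14 and 11 CpG, whereas the Itga4, Itgb7 and Lamb2 windows had 6, 5 and 3. At least 10 CpG were in 14 of the 26 member windows and in 37.8% of all windows. Other motifs were searched on both strands in the same 26 windows: the RUNX core TGTGGT was in 2 (14.0% of all windows), the TEAD core GGAATG in 4 (12.6%), the AP-1 core TGANTCA in 1 (6.75%), the PU.1-type core GAGGAA in 14 (23.3%) and TATAAA in 0 (12.4%). Motifs could overlap each other, and a match describes letters and not a bound site.

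Proteins that work with integrins were read from lists drawn up with earlier results of these data known. Inside leukocytes, talin and kindlin-3 switch integrins on. A list of 16 genes around this switch held brakes such as Sipa1 as well, so its counts and median do not describe activators alone. Of the 16, edgeR called 0, while 3 had an unadjusted p under 0.05 and were higher (the share over all genes was not counted). DESeq2 called 3 higher (471 of all 13360 genes) and limma-voom 0. The replicate block called 4 higher (5.60% of all genes), Cytip, Fermt3, Sipa1 and Skap1. Their median log2 fold change was 0.296, and -0.418 under the CD8 T cell marker scaling. Fermt3, which encodes kindlin-3, had 163, 248.7 and 171 CPM in Biotin+ and 125, 121 and 91.6 CPM in Biotin- (log2 fold change 0.79 ± 0.23 SE, edgeR adjusted p = 0.0607, and 0.00912 with the replicate block). Skap1, an adaptor of LFA-1 activation, and Sipa1, a brake on the GTPase RAP1, had log2 fold changes of 0.81 ± 0.25 and 0.60 ± 0.18 (SE; edgeR adjusted p = 0.0803 and 0.0691), and Rassf5, an effector of RAP1, of 0.54 ± 0.27 (SE, edgeR adjusted p = 0.270). Skap1 passed when Biotin+ replicate 3 was left out.

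Focal adhesion proteins, which tie matrix-bound integrins to actin in adherent cells, fell in 12 of 20 tested genes and rose in 0. Their median log2 fold change was -1.39. Over all genes tested, 6.72% were lower and 1.53% higher, with a median of 0.0612. Parva and Tgfb1i1, both scaffold proteins of focal adhesions, had log2 fold changes of -2.31 ± 0.32 and -3.16 ± 0.51 (SE; edgeR adjusted p = 0.00603 and 0.00784). Flnc, a filamin, and Bcar1, a docking protein of adhesion signalling, had -2.31 ± 0.38 and -2.14 ± 0.36 (SE; edgeR adjusted p = 0.00820 and 0.00837). The count was 4 without Biotin- replicate 3, where 239 of all 13656 genes were lower, against 898 of 13360 in the main test. DESeq2, limma-voom and the replicate block each called 1 gene of the list higher, Zyx, which encodes zyxin. They called 471, 331 and 748 of all 13360 genes higher. Fibroblast markers were lower in the same libraries, as given above.

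Vcam1, the ligand of VLA-4 on vessels and stroma, fell and was the only one of 7 tested leukocyte integrin ligands to pass, with 13.7, 15.9 and 11.4 CPM in Biotin+ and 62.7, 58.6 and 63.8 CPM in Biotin- (log2 fold change -2.18 ± 0.21 SE, edgeR adjusted p = 0.00389). Its call held whichever of the 6 libraries was dropped. Over all genes tested, 6.72% were lower in the main test. Icam1, the main LFA-1 ligand, averaged 292 ± 99.8 CPM in Biotin+ against 234 ± 46.5 CPM in Biotin- (SD over 3 libraries) and did not pass (edgeR adjusted p = 0.521). Icam5 did not pass either (edgeR adjusted p = 0.590). Jam3, a ligand of Mac-1, was counted 10, 0 and 0 times in Biotin+ and 40, 19 and 50 times in Biotin- (edgeR adjusted p = 0.106, and 0.0198 with the replicate block), and it passed in DESeq2, in limma-voom and without Biotin+ replicate 1.

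Of 10 tested matrix ligands of integrins, 5 fell: Tnc, Postn, Ccn1, Spp1 and Fn1. Of all genes tested, 6.72% were lower. Tnc and Postn, matrix proteins of activated stroma, had log2 fold changes of -4.20 ± 0.54 and -3.34 ± 0.48 (SE; edgeR adjusted p = 0.00577 and 0.00643), and Ccn1 and Spp1, secreted ligands of Itgav integrins, of -2.25 ± 0.39 and -1.45 ± 0.26 (SE; edgeR adjusted p = 0.00930 and 0.00995). The count was 2 without Biotin+ replicate 2, where 364 of all 13821 genes were lower. Of 9 tested basement membrane partners, 5 fell in the main test. With the replicate block 9 were lower (12.0% of all genes), and without Biotin+ replicate 3 it was 8 (1044 of all 13780 genes). Col18a1, a basement membrane collagen, and Hspg2, which encodes perlecan, had log2 fold changes of -2.38 ± 0.25 and -2.12 ± 0.24 (SE; edgeR adjusted p = 0.00442 and 0.00554). Sparc, a matrix protein that binds collagen, and Col4a2, a type IV collagen chain that nidogens bind, had -2.36 ± 0.34 and -2.28 ± 0.43 (SE; edgeR adjusted p = 0.00643 and 0.0128). Col4a1, the other main chain of that collagen, had -3.49 ± 0.73 (SE, edgeR adjusted p = 0.0180). Fn1, fibronectin and the ligand of Itga5 with Itgb1, had 300.4, 148 and 150.2 CPM in Biotin+ and 1383, 514 and 491 CPM in Biotin- (log2 fold change -2.0 ± 0.44 SE, edgeR adjusted p = 0.0218).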

How the data were processed

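Poly-A RNA was bound to oligo-dT beads, fragmented and copied from random primers, per the labels' protocols, which name neither molecular identifiers nor strand. The authors deposited raw counts per gene symbol with 1 column per library, per the labels. The submitters' processing notes name GRCm39, featureCounts 2.0.1, Picard 1.14, STAR 2.7.10a and Trim Galore 0.6.7. For the annotation and for shared reads, no setting is given in the sources at hand. Antisense neighbours therefore cannot be told apart. No libraries were duplicates (chi-square over degrees of freedom from 38.7 to 112 within groups), and all 6 entered each test.

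Counts were tested with edgeR 4.0.16 in R 4.3.3 (filterByExpr, TMM, robust quasi-likelihood F test, group alone, Benjamini-Hochberg over 13360 genes, threshold 0.05), after the script was tested on simulated data. Standard errors are fold changes on the log2 scale over the square root of F. Deviations from the group means correlated at 0.424, 0.272 and 0.430 for libraries with equal numbers, and at -0.304 to -0.107 otherwise. The numbers were therefore taken to pair the libraries in the replicate block and where pairs are counted. The labels state no pairing. Alternatives were other scalings and filters, DESeq2 1.42.0, limma-voom (limma 3.58.1), the replicate block and leaving out each library. CPM values were computed here from the counts. Members that passed or averaged at least 10 CPM are given by library, the rest more briefly, and up to 4 genes per pathway list by smallest p, plus any others that fell where 5 did. The members, classes and lists were chosen with earlier results of these data known. Transcript lengths and overlaps came from GENCODE M21 (GRCm38), and no coordinates were carried between builds. Intervals and floors cover counting error only.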

Additional observations from a re-analysis of the deposited data

How the results depend on the processing

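Members called lower numbered 6 in the main test, 5 to 8 under the other scalings, filters, tools and the replicate block except for 13 under the CD8 T cell marker scaling, and 2 to 5 when a library was left out. Members called higher numbered 0, but 1 in DESeq2 and 2 with the replicate block. Over all genes, 205 were higher and 898 lower. Those higher numbered 84 with library size alone, 24 with CD8 T cell marker scaling, 396 without a filter, 471 in DESeq2, 331 in limma-voom, 748 with the replicate block and 23 to 200 without 1 library. Those lower numbered 3558 with CD8 T cell marker scaling, 1495 without a filter, 1389 in DESeq2, 1599 with the replicate block and 239 to 1044 without 1 library. Leukocyte integrins called lower numbered 0 in the main test, 2 under CD8 T cell marker scaling, 1 without a filter and 1 with the replicate block. Laminins and nidogens called lower numbered 2, against 5 under CD8 T cell marker scaling and 0 to 2 without 1 library.

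Under the CD8 T cell marker scaling the log2 fold change turned to -0.066 for Itgal, -0.20 for Itgax, -0.20 for Itgb2, -0.29 for Itga4, -0.34 for Itgav and -0.31 for Itgb3. For Itgax it was -0.065 in limma-voom and -0.54 to 0.87 without 1 library, and for Itgb1 it was -0.50 to 0.012 without 1 library. The causes were not tested. Of the 36 members, 9 had too few counts for a test.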

Other observations

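Biotin+ replicate 1 held the highest level of several members among the 6 libraries: Itgal at 953 CPM, Itgax at 118 CPM, Itgad at 3.24 CPM, Itgav at 139 CPM, Itgb1 at 652 CPM, Itgb3 at 84.2 CPM and Nid2 at 6.04 CPM. Cdh1, which encodes E-cadherin, had 129, 20.7 and 19.4 CPM in Biotin+ and 51.8, 20.7 and 9.24 CPM in Biotin- replicates 1, 2 and 3, so replicate 1 was the highest in each group. These genes were chosen after their values were seen, and no cause was tested.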
